A study of Mus musculus with 20 samples.

Results

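The genotype by subset interaction asked whether loss of *Dnmt3a* changed a gene by the same amount in CD4+ and in CD8+ donor T cells. It was measured as the KO-minus-WT difference in CD8+ cells less the KO-minus-WT difference in CD4+ cells, on the log2 scale. The 16 KO and WT libraries whose names end in CD4 or CD8 were used, of 20 in the series, and the 4 double-positive (DP) libraries entered no fit except as a named alternative. There were 4 libraries each of KO CD4+, KO CD8+, WT CD4+ and WT CD8+ cells. A positive interaction means that KO raised the gene more, or lowered it less, in CD8+ than in CD4+ cells.

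All libraries came from sorted donor T cells of the recipient's spleen on day 10 after transplantation. KO donors carried floxed *Dnmt3a* (2loxP) and a Cre recombinase driven by the *Cd4* promoter on the B6 background, and WT donors were littermates. The labels give donors an age of 6 to 12 weeks and recipients an age of 8 to 12 weeks. The recipients of both genotypes were irradiated F1 mice that received B6 marrow and T cells. Because Cre is driven from the *Cd4* promoter, deletion occurs while thymocytes pass through the stage that carries both coreceptors, so that CD4+ and CD8+ cells are both affected. Whether WT littermates carried the Cre transgene was not given in the sources used here. The KO animals are numbered 1 to 4 and the WT animals 2, 3, 5 and 6, and each contributed a CD4+ and a CD8+ library.

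DNMT3A is a de novo DNA methyltransferase, which adds methyl groups to cytosines of CpG dinucleotides. In T cells such marks help activated and differentiated cells keep genes of other fates silent. CD4+ and CD8+ cells descend from a common precursor, and CD8+ cells silence *Cd4* while CD4+ cells silence *Cd8a* and *Cd8b1*. ZBTB7B (ThPOK) directs the CD4+ fate, and RUNX3 directs the CD8+ fate and acts at the *Cd4* silencer. After transplantation across a histocompatibility barrier both subsets expand, with CD4+ cells acting mainly as cytokine producers and CD8+ cells as killers.

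The 16 libraries held 37547651 to 46771383 reads assigned to genes, with 13378 to 14077 genes detected in KO and 14421 to 14677 in WT libraries. *Dnmt3a* was lower in every KO library. Its normalized counts were 1385 to 1658 in KO and 4690 to 5171 in WT CD4+ cells, and 1287 to 2007 in KO and 3542 to 3812 in WT CD8+ cells. The 7 alpha-beta T cell markers in the table summed to 184073 to 238832 normalized counts, with overlapping ranges in the 4 groups. The 9 B cell markers summed to 3107 to 5438 in KO and 8215 to 11796 in WT CD4+ libraries, and to 3006 to 6227 in KO and 5564 to 8320 in WT CD8+ libraries. *Ms4a1* was at 0 in all KO CD8+ and all WT CD4+ libraries, and *Pax5* in all KO CD8+ libraries. The 10 myeloid markers summed to 931 to 3294 in KO CD4+ and 1814 to 4837 in KO CD8+ libraries, and their range in WT libraries was 2924 to 3634 for CD4+ and 2982 to 5382 for CD8+ cells. Both erythroid markers together reached at most 391 in KO and lay between 313 and 1498 in WT libraries. The 9 pancreatic acinar markers ranged from 718 to 7806 in KO and from 441 to 2539 in WT libraries. Of the 6 B cell, 10 myeloid, 2 erythroid and 9 acinar markers tested, 0 passed the threshold for the interaction (limma with the animal block). Over all genes tested 1.39% passed, so that 0 calls on lists this short carry little information. The part of these cells in the results was not tested. In sorted populations, fewer cells that carry a transcript and less of it per cell cannot be told apart.

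Genes were tested where their normalized count averaged 10 or more over the 16 libraries, and of these 12446 genes 2 passed an adjusted P of 0.05 when the 4 groups were compared without regard to the animal (0.0161%). These were *Cd4* and *Nr3c1*, both positive. At an unadjusted P under 0.05 there were 793 genes (6.37%). Leaving out 1 library gave 0 calls for 12 of the 16 libraries (limma, 567 to 895 genes at an unadjusted P under 0.05). The exceptions were the CD4+ library of KO animal 3 with 3 calls, the CD8+ libraries of KO animals 1 and 3 with 4 and 5, and the CD8+ library of WT animal 3 with 2. CD4+ and CD8+ libraries of the same animal deviated together, with correlations of 0.405 to 0.496 in KO and 0.129 to 0.194 in WT animals. With the animal as a block the same interaction was read from the CD8-minus-CD4 difference within each of the 8 animals, and 173 genes passed (1.39%), including *Cd4* and *Nr3c1*. In this fit 1897 genes (15.2%) had an unadjusted P under 0.05. Of the 173 genes that passed, the interaction was positive in 90 (0.723% of genes tested) and negative in 83 (0.667%). The median SE of the interaction was 0.21 on the log2 scale without the block and 0.14 with it, while the estimates were the same.

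The number of calls depended on which animals were included. Without KO animal 4 there were 12 calls, and without WT animals 2, 5 or 6 there were 8, 11 and 11. It was 105 without WT animal 3, and rose to 268 without KO animal 3. The direction was the same in all 173 genes without each animal in turn. In 171 of them KO and WT animals did not overlap in the CD8-minus-CD4 difference, so leaving out 1 animal could not turn the direction. The call was kept every time by 8 genes. Those were *Cd4*, *Dnajc6*, *Dclk1*, *Fam101b* and *Lnpep*, with positive interactions, and *Haao*, *Cerk* and *Slc1a5*, with negative ones. The other named genes that passed kept their call in 1 to 5 of the 8 runs without 1 animal. It was kept in 1 run for *Bax*, *Cd247*, *Ctsw*, *Itgb1*, *Myc*, *Ankle1*, *Ccdc112*, *Dmxl2* and *Susd1*. For *Cblb*, *Il2rb*, *Itga4*, *Hk3*, *Lmntd2*, *Snhg20* and *Zfp692* it was kept in 2. The DESeq2 test on whole reads called all 173 and the edgeR quasi-likelihood test 125. Without the variance trend limma called 2 genes, and *Cerk* was the only 1 of the 173 among them. KO animals varied more than WT animals, with a median SD of the CD8-minus-CD4 difference of 0.22 against 0.15 on the log2 scale.

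The called genes had interactions whose median absolute value was 0.54 on the log2 scale, against 0.15 over all genes tested. In 23 of the 173 it exceeded 1. KO and WT cells differed past the threshold in CD8+ cells only for 87 of the 173, in CD4+ cells only for 31, in both with the same sign for 24, in both with opposite signs for 2 and in neither for 29. In the same order, these classes held 1651, 805, 1956, 2 and 8032 of all 12446 genes tested. Over all genes tested, KO and WT differed in 2763 genes in CD4+ cells (22.2%) and 3609 in CD8+ cells (29%). Among the positive genes, 62 rose and 2 fell in KO CD8+ cells, and 11 rose and 17 fell in KO CD4+ cells. Among the negative genes, 47 fell and 2 rose in KO CD8+ cells, and 9 fell and 20 rose in KO CD4+ cells.

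**Figure D1:**
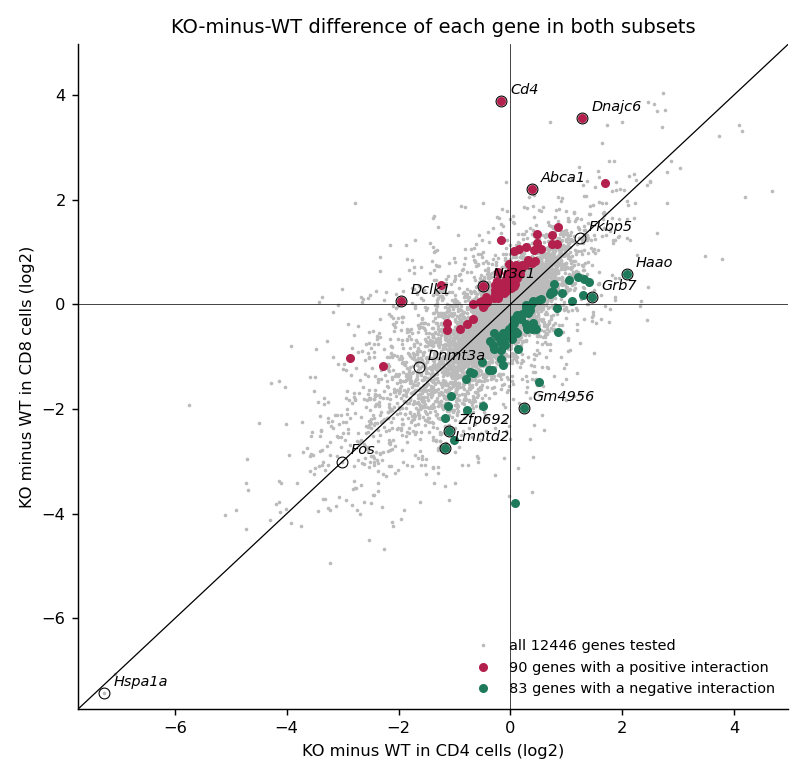
KO-minus-WT difference of each of the 12446 genes in CD4+ cells (x axis, log2) and in CD8+ cells (y axis, log2). The diagonal marks equal differences; red and green points are the 90 genes with a positive and the 83 with a negative interaction past the threshold with the animal block, and 14 genes are circled and named. *Cd4* stands alone at 3.88 in CD8+ and -0.17 in CD4+ cells, while *Hspa1a*, *Fos* and *Fkbp5* lie on or near the diagonal.

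The called genes differed less between subsets in KO than in WT animals. The absolute CD8-minus-CD4 difference was smaller in KO than in WT animals for 145 of the 173 genes (83.8%), compared with 59.8% of all genes tested. Its sign was turned in 70 of the 173, compared with 3003 of all 12446 genes tested. Of the 90 positive genes, all but 2 were higher in CD4+ than in CD8+ cells in WT animals, and 77 of the 83 negative genes were higher in WT CD8+ cells. Among all genes tested, 50.9% were higher in WT CD8+ cells. Since the WT difference is 1 of the terms of the interaction, these counts describe the called genes and are no test.

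*Cd4*, the coreceptor for MHC class II, had the largest interaction of the named genes (chromosome 6, 124864693 to 124888247, GRCm38.p6). In KO animals 1 to 4 its normalized counts were 54510, 44804, 74386 and 72645 in CD4+ cells and 302, 336, 349 and 458 in CD8+ cells. In WT animals 2, 3, 5 and 6 they were 66999, 64652, 72567 and 66902 in CD4+ cells and 12.2, 79.6, 9.88 and 28.7 in CD8+ cells. The ranges overlapped in CD4+ cells, and every KO CD8+ library was above every WT CD8+ library. The KO-minus-WT difference was -0.17 ± 0.43 (SE) on the log2 scale in CD4+ cells and 3.88 ± 0.43 in CD8+ cells, giving an interaction of 4.05 ± 0.49 (limma with the animal block, adjusted P = 0.00425; without the block, adjusted P = 0.0451). The call was lost without the variance trend (adjusted P = 0.142 with and 0.128 without the block), and without the block also with array weights (adjusted P = 0.348) and in 12 of 16 runs without 1 library. Without 1 animal and with the block the interaction lay between 3.63 and 4.65. The CD8-minus-CD4 difference within an animal was -7.40 ± 0.29 (SD, n = 4) in KO and -11.45 ± 1.37 (SD, n = 4) in WT animals. The 4 animals of each genotype did not overlap in this difference (exact permutation test, P = 0.0286, the smallest that 4 against 4 animals can give, 2-sided).

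The *Cd4* level of KO CD8+ cells remained far below that of CD4+ cells. It was 0.469% to 0.749% of the level in the CD4+ library of the same animal, against 0.0136% to 0.123% in WT animals. The DP libraries of the same KO animals, which were sorted for both coreceptors, held 8758 to 15351 normalized counts, and the CD8+ libraries held from 1.97% to 4.0% of these. A low level in many cells and a high level in a few cells, such as cells of another gate, cannot be told apart here.

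*Cd8a* and *Cd8b1*, which encode the CD8 coreceptor chains, gave no call for the interaction. In KO CD4+ cells *Cd8a* was at 3771, 115, 78.3 and 227 in animals 1 to 4, and *Cd8b1* at 4515, 550, 621 and 788. WT CD4+ libraries held 99.1 to 586 of *Cd8a* and 285 to 549 of *Cd8b1*. The CD4+ library of KO animal 1 was high for both genes, and every KO CD4+ library was above every WT one for *Cd8b1*. The lowest KO value, 550, lay next to the highest WT value, 549. The interaction of *Cd8b1* was -1.19 (95% interval -2.29 to -0.09, adjusted P = 0.288), and that of *Cd8a* -0.96 (-3.06 to 1.14, adjusted P = 0.719). Without KO animal 1 these became -0.53 and 0.24. KO CD4+ cells had more *Cd8b1* than WT CD4+ cells by 1.57 on the log2 scale (adjusted P = 0.0243). This difference was not recomputed without KO animal 1. A low level in many cells and a high level in a few cannot be told apart here either.

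The lineage regulators gave no call either. *Runx3* had 8290 to 9824 normalized counts in KO and 10403 to 10780 in WT CD8+ cells, and 6679 to 7835 in KO and 6786 to 7329 in WT CD4+ cells. Its level was lower in every KO CD8+ library than in any WT one, and the ranges overlapped in CD4+ cells. The interaction was -0.27 (95% interval -0.44 to -0.10, adjusted P = 0.113), and the within-animal differences of KO and WT did not overlap. Over all genes tested, KO and WT animals did not overlap in 8.68%, with KO above WT in 4.48% and below it in 4.2%. For *Zbtb7b* it was -0.03 (-0.32 to 0.26, adjusted P = 0.945). Among 23 regulators of the *Cd4* silencer and the CD4 or CD8 fate, 0 passed the threshold in limma with the block, 5 had an unadjusted P under 0.05 (15.2% of all genes did in this fit), and the median interaction was 0.03.

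**Figure D2:**
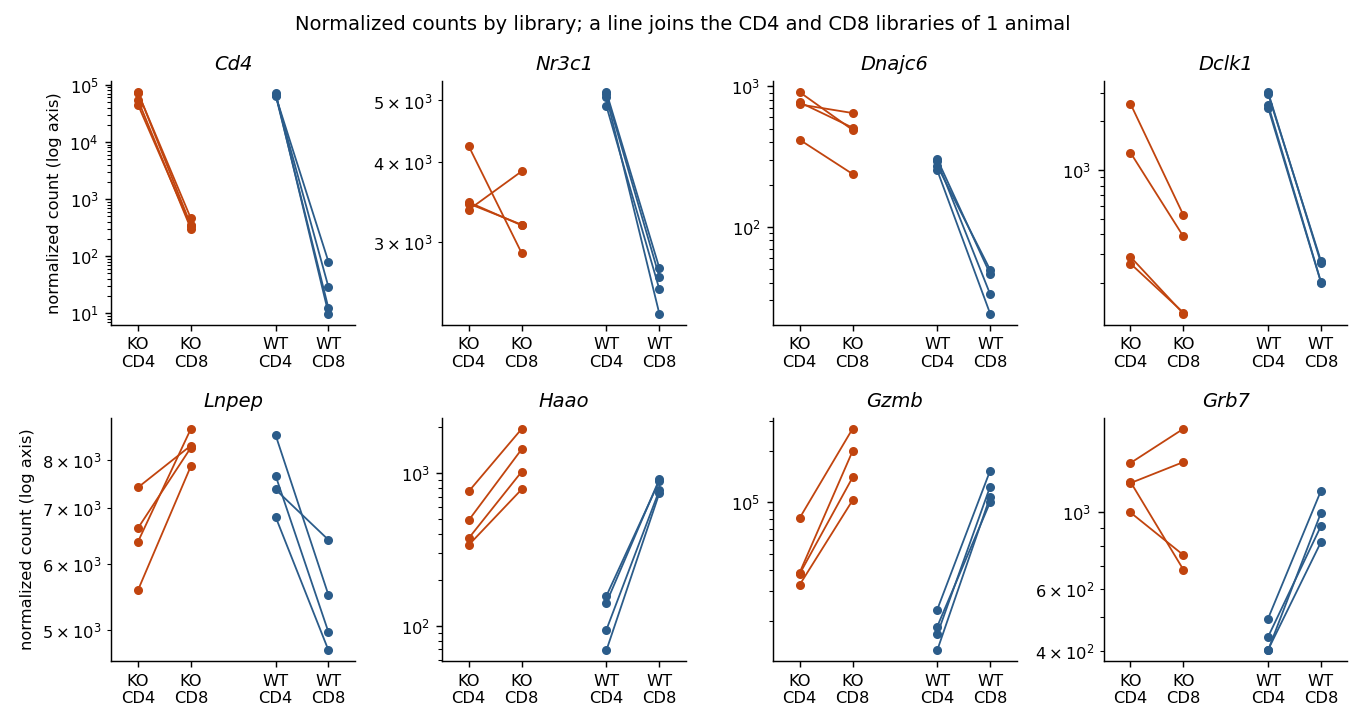
Normalized counts (log axis) of 8 genes in the 16 libraries, KO in red and WT in blue, with a line joining the CD4+ and CD8+ libraries of each animal. *Cd4*, *Nr3c1*, *Dnajc6*, *Dclk1* and *Lnpep* have positive interactions and *Haao*, *Gzmb* and *Grb7* negative ones; for *Nr3c1* and *Grb7* the KO lines run flat or in mixed directions while all 4 WT lines run the same way.

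*Nr3c1*, which encodes the glucocorticoid receptor, was the other gene called without the block. In CD4+ cells it had 3464, 3371, 4239 and 3446 normalized counts in KO animals 1 to 4 and 5154, 5110, 4901 and 5072 in WT animals 2, 3, 5 and 6. In CD8+ cells it had 3185, 3872, 2881 and 3194 in KO and 2732, 2646, 2531 and 2316 in WT animals. All KO libraries were lower than WT in CD4+ cells and higher than WT in CD8+ cells. *Nr3c1* is 1 of the 2 called genes that differed past the threshold in both subsets with opposite signs. It fell by 0.48 in KO CD4+ cells (adjusted P = 0.00256), KO CD8+ cells had 0.36 more (adjusted P = 0.00921), and the interaction was 0.84 ± 0.13 (SE; adjusted P = 0.0247 with the block and 0.0451 without it). Its call with the block was kept in 4 of 8 runs without 1 animal, with values of 0.72 to 0.98. Without the variance trend the call was lost in both fits. Without the block it was kept in 3 of 16 runs without 1 library. That fit also lost it with array weights, with edgeR and in a joint fit of 20 libraries. The same held with correction for transcript length and GC content (limma without the block, adjusted P = 0.362). The subsets differed by -0.99 ± 0.10 (SD, n = 4) in WT and by -0.15 ± 0.31 (SD, n = 4) in KO animals.

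The glucocorticoid receptor is a ligand-dependent transcription factor. On a list of 17 genes of the receptor, its cofactors and its targets, the median interaction was 0.10 against -0.0019 over all genes tested. Of the list genes 2 passed, both positive, beside 1.39% of all genes tested, and *Nr3c1* itself was 1 of them. The other was *Ncoa2*, a coactivator of nuclear receptors, at 0.33 ± 0.06 (SE). Its counts were 6439 to 6705 in KO and 6807 to 6977 in WT CD4+ cells, and 5874 to 6103 in KO and 4783 to 5227 in WT CD8+ cells, with no overlap in either subset. *Fkbp5*, a chaperone partner of the receptor and among its best-known targets, rose by 1.24 in KO CD4+ and by 1.26 in KO CD8+ cells. Its counts were 29401 to 32981 in KO and 11290 to 15859 in WT CD4+ cells, and 21264 to 27022 in KO and 9411 to 11102 in WT CD8+ cells. The interaction of *Fkbp5* was 0.02 (95% interval -0.23 to 0.26).

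*Dnajc6*, *Dclk1*, *Fam101b* and *Lnpep* kept the calls of their positive interactions without any 1 animal, and lost them without the variance trend and without the block. Of 13 alternative settings, *Dnajc6* kept its call in 11, and *Dclk1*, *Fam101b* and *Lnpep* kept theirs in 10. *Dnajc6* encodes auxilin, which removes clathrin from vesicles and is best known in neurons. It had 417, 743, 770 and 909 normalized counts in KO CD4+ cells and 238, 645, 508 and 490 in KO CD8+ cells of animals 1 to 4. WT CD4+ cells held 293, 304, 273 and 253 and WT CD8+ cells 33.1, 46.1, 49.4 and 24.1 in animals 2, 3, 5 and 6. KO was above WT in both subsets without overlap, by 1.28 in CD4+ and 3.55 in CD8+ cells on the log2 scale, and the interaction was 2.27 ± 0.25 (SE; adjusted P = 0.00370).

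*Dclk1*, a doublecortin-like kinase that binds microtubules, had a positive interaction with a fall in CD4+ cells. KO CD4+ cells held 263, 290, 2578 and 1283 normalized counts and KO CD8+ cells 131, 129, 526 and 387. WT CD4+ cells held 2441, 2969, 3042 and 2547, and WT CD8+ cells 201, 273, 265 and 202. KO animals 1 and 2 were low in both subsets. The KO-minus-WT difference was -1.95 in CD4+ cells (adjusted P = 0.0308), that in CD8+ cells was 0.06, and the interaction was 2.01 ± 0.24 (SE; adjusted P = 0.00425). The CD8-minus-CD4 differences of KO and WT animals did not overlap, as the naming rule required.

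*Fam101b*, listed in RefSeq as *Rflnb* and encoding a protein that binds filamin, had 669 to 2575 normalized counts in KO and 1069 to 2027 in WT CD4+ cells. In CD8+ cells it had 327, 134, 256 and 733 in KO and 166, 101, 144 and 110 in WT animals. The ranges overlapped in both subsets. The CD8-minus-CD4 differences were -2.44 to -1.81 in KO and -3.77 to -3.39 in WT animals, without overlap, as the naming rule required. The interaction was 1.41 ± 0.17 (SE; adjusted P = 0.00425). *Lnpep*, a membrane aminopeptidase of endosomes that trims peptides for MHC class I, had 5583 to 7408 in KO and 6835 to 8560 in WT CD4+ cells, and 7857 to 8706 in KO and 4732 to 6413 in WT CD8+ cells. It was higher in CD8+ than in CD4+ cells in all 4 KO animals and lower in all 4 WT animals, with an interaction of 0.85 ± 0.10 (SE; adjusted P = 0.00425).

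Since DNMT3A acts on CpG dinucleotides, promoter windows are shown for 3 of the named genes that kept their call without each animal. These are the named ones with 1 window in the RefSeq promoter table. *Cerk* and *Slc1a5*, which fall outside the naming rule, were not looked up. Each window runs 5′ to 3′ on the gene's strand from 250 bases before to 50 bases after the start (RefSeq, GRCm38.p6), with CpG dinucleotides in capitals. The windows are chr11:76027733-76028032 (minus strand) for *Fam101b*, chr17:17624440-17624739 (minus strand) for *Lnpep* and chr17:83846741-83847040 (minus strand) for *Haao*.
Fam101b: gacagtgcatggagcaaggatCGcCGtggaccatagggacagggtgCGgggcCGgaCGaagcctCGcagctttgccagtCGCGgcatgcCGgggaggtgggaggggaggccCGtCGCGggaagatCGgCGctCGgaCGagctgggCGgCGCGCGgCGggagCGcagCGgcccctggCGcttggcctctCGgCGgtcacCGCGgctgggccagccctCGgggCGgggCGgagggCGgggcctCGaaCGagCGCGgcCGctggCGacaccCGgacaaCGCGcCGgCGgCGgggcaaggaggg
Lnpep: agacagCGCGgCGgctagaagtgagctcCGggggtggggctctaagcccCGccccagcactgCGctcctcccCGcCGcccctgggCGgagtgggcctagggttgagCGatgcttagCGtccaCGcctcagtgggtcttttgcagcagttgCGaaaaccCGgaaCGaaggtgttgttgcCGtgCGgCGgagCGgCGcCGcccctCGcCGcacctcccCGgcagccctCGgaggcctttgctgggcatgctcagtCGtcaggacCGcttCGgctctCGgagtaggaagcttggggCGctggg
Haao: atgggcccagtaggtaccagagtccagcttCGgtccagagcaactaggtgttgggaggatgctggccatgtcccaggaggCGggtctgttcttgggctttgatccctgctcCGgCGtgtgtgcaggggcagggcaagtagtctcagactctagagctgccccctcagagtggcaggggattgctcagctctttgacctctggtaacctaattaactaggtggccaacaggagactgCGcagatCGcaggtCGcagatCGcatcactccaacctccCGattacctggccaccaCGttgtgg
These windows hold 44, 30 and 10 CpG dinucleotides. Of 27025 promoters in the table, 98.1%, 89.7% and 58.1% hold as many or fewer. Methylation was not analysed here, and 76.3% of the 173 genes and 79.2% of all genes tested had a promoter in the table, so that CpG content was not compared over the called genes.

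Of the 12 named genes with the largest positive interactions, from 0.85 to 4.05, KO and WT differed in CD8+ cells only for 6, in CD4+ cells only for 2, in both for 3 and in neither for 1. *Abca1*, the cholesterol exporter, had 200, 55.6, 69.5 and 530 normalized counts in KO CD8+ cells against 24.1 to 43.2 in WT CD8+ cells, and 159 to 1872 in KO against 251 to 567 in WT CD4+ cells. It rose in KO CD8+ cells by 2.20 (adjusted P = 0.0252), and the interaction was 1.82 ± 0.31 (SE). *Tanc1*, a scaffold protein, rose in KO cells of both subsets, by 0.48 in CD4+ and 1.34 in CD8+ cells. *Hk3*, a hexokinase, fell in KO cells of both subsets, by 2.28 in CD4+ and 1.17 in CD8+ cells, with 47.2 to 154 in KO against 344 to 568 in WT CD4+ cells. *Dmxl2*, a regulator of the vacuolar proton pump, fell by 2.87 in KO CD4+ cells. Its difference of -1.03 in CD8+ cells did not pass (limma, adjusted P = 0.138). For *Hlf*, a PAR-type transcription factor, neither subset differed past the threshold, yet CD8+ cells were higher than CD4+ cells in all 4 KO animals and lower in all 4 WT animals (interaction 1.61 ± 0.32, SE).

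*Elk4*, which encodes a partner of serum response factor, and *Mfsd4*, a putative sugar transporter, overlap on chromosome 1. They lie on opposite strands, at 132007577 to 132026448 and 132022806 to 132069658 (GRCm38.p6). *Elk4* had 2988 to 5938 normalized counts in KO and 1803 to 2300 in WT CD8+ cells, and *Mfsd4* had 902 to 1558 and 481 to 668. In CD4+ cells KO and WT overlapped for both. Their interactions were near each other, 0.95 ± 0.14 (SE) for *Elk4* and 0.90 ± 0.14 (SE) for *Mfsd4*. The authors' counting used strand, and any exchange of reads between the genes was not tested.

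**Figure D3:**
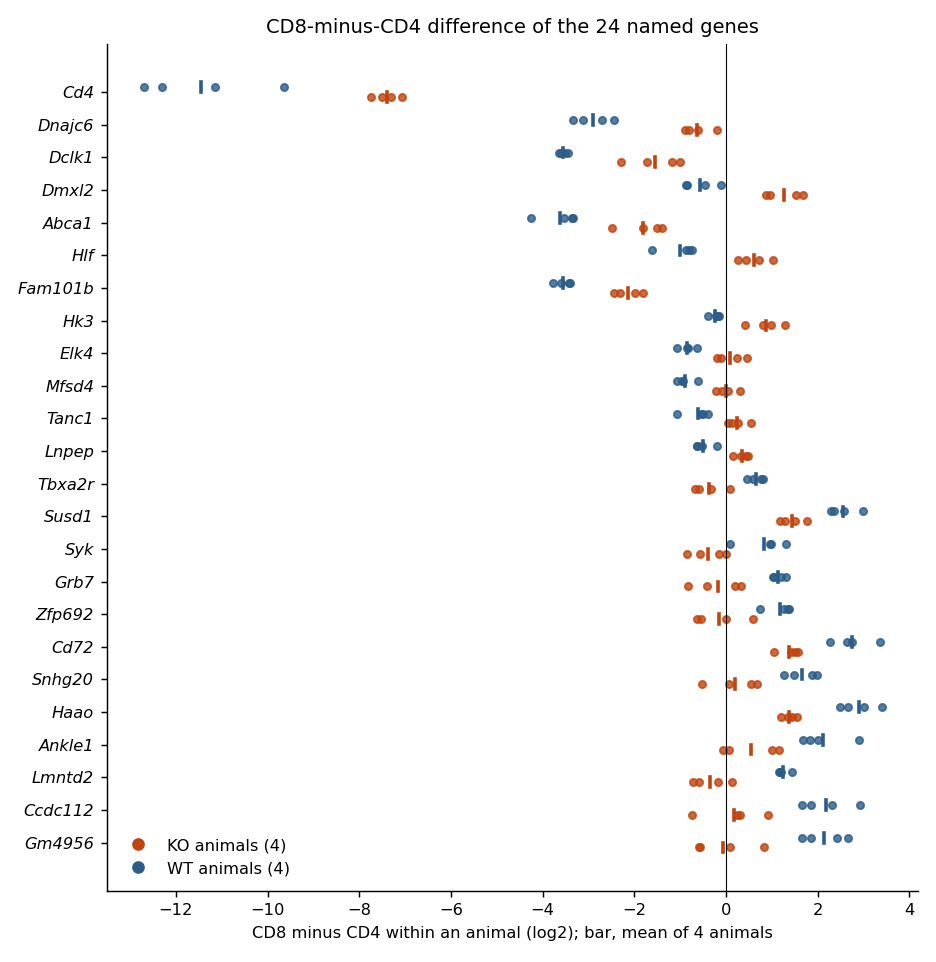
CD8-minus-CD4 difference within each animal (x axis, log2) for the 12 named genes with the largest positive and the 12 with the largest negative interactions, with 4 KO animals in red, 4 WT animals in blue and bars for the means. KO and WT animals do not overlap, as the naming rule required, and the KO points lie nearer to 0 than the WT points for most genes.

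*Haao*, an enzyme of the kynurenine pathway from tryptophan to NAD, was the largest negative interaction among genes that kept their call without each animal. It had 758, 491, 338 and 374 normalized counts in KO CD4+ cells and 69.1, 157, 94.2 and 142 in WT CD4+ cells. In CD8+ cells it had 1944, 1431, 782 and 1020 in KO and 737, 885, 770 and 908 in WT animals. KO was above WT without overlap in CD4+ cells, and the ranges overlapped in CD8+ cells. The gene rose by 2.08 in KO CD4+ cells (adjusted P = 0.000567), the difference in CD8+ cells was 0.57, and the interaction was -1.51 ± 0.20 (SE; adjusted P = 0.00738).

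*Cerk* and *Slc1a5* fall outside the naming rule and were chosen after their values were seen, because they too kept their call without each animal. *Cerk*, the ceramide kinase, had 997, 686, 916 and 1510 normalized counts in KO CD4+ cells and 1750, 1312, 1676 and 2664 in KO CD8+ cells, against 349 to 434 and 1300 to 1378 in WT cells. The KO level varied from animal to animal, while the CD8-minus-CD4 difference was 0.86 ± 0.06 (SD, n = 4) in KO and 1.84 ± 0.12 (SD, n = 4) in WT animals. Its interaction was -0.98 ± 0.10 (SE; adjusted P = 0.00370). *Slc1a5*, the glutamine transporter ASCT2 of dividing cells, had 6980 to 10916 in KO and 8455 to 10771 in WT CD4+ cells, and 6913 to 9737 in KO and 14195 to 15654 in WT CD8+ cells. WT CD8+ cells stood apart from the other 3 groups, and the interaction was -0.68 ± 0.08 (SE; adjusted P = 0.00370).

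The 12 named genes with the largest negative interactions ranged from -2.21 to -1.03, and in all 12 the subsets differed less in KO than in WT animals. They reached this from either side. *Grb7*, a signalling adaptor, had 995 to 1377 normalized counts in KO and 402 to 495 in WT CD4+ cells, and 683 to 1724 in KO and 819 to 1148 in WT CD8+ cells. *Tbxa2r*, the thromboxane receptor, had 1235 to 1441 in KO and 533 to 727 in WT CD4+ cells, and 834 to 1315 in KO and 939 to 1010 in WT CD8+ cells. *Susd1* had 112 to 149 in KO and 40.4 to 64.2 in WT CD4+ cells, and 313 to 397 in KO and 306 to 333 in WT CD8+ cells. For these 3 and *Haao*, KO cells were higher past the threshold in CD4+ cells only.

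For several other negative genes WT CD8+ cells were the highest group. *Zfp692*, a zinc finger repressor, had 128 to 284 normalized counts in KO and 860 to 938 in WT CD8+ cells, and 162 to 200 in KO and 329 to 557 in WT CD4+ cells. It fell in both subsets, by 1.09 in CD4+ and 2.43 in CD8+ cells. *Lmntd2* fell in both as well, by 1.17 and 2.75. *Gm4956* had 34.0 to 279 in KO and 315 to 518 in WT CD8+ cells and the largest negative interaction named, -2.21 ± 0.36 (SE). *Ankle1*, a nuclease with ankyrin repeats, and *Snhg20*, a host of small nucleolar RNAs, also fell past the threshold in KO CD8+ cells only, by -2.58 and -1.95. Their differences of -1.02 and -0.49 in CD4+ cells did not pass (limma, adjusted P = 0.0613 and 0.361). For *Ccdc112* the difference of -1.48 in CD8+ cells did not pass (adjusted P = 0.0522).

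*Cd72* and *Syk* are best known from B cells, as an inhibitory receptor and as the kinase of the B cell receptor. *Syk* had 118 to 666 normalized counts in KO and 1185 to 1631 in WT CD8+ cells, and 213 to 669 in KO and 505 to 1521 in WT CD4+ cells. *Cd72* had 255 to 852 in KO and 710 to 885 in WT CD8+ cells, and 94.3 to 407 in KO and 78.0 to 146 in WT CD4+ cells. In WT animals both genes were higher in CD8+ cells. The B cell markers summed to 8215 to 11796 in the CD4+ libraries of these animals and to 5564 to 8320 in their CD8+ libraries. The part of B cells in the values of *Syk* and *Cd72* was not tested. The interactions were -1.23 ± 0.25 (SE) for *Syk* and -1.37 ± 0.23 (SE) for *Cd72*.

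Genes of T cell programmes were taken from 19 lists with 339 tested genes, of which 14 passed (4.13%), 7 positive and 7 negative, beside 1.39% of all genes tested. On the list of CD8 lineage and cytotoxic genes, 2 of 23 passed, both negative, and the median interaction was -0.23. *Gzmb*, which encodes granzyme B, a protease of cytotoxic granules, had 32778, 80806, 38648 and 37996 normalized counts in KO and 16784, 23463, 18673 and 13543 in WT CD4+ cells. In CD8+ cells it had 102721, 270098, 199627 and 139916 in KO and 123834, 153597, 100264 and 107998 in WT animals. KO CD4+ libraries were all above WT CD4+ libraries, and the CD8+ ranges overlapped. *Gzmb* rose by 1.32 in KO CD4+ cells (adjusted P = 0.00637), with an interaction of -0.84 ± 0.15 (SE; adjusted P = 0.0271).

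*Ctsw*, a cathepsin of cytotoxic cells, fell in KO CD8+ cells, where it had 11322 to 14300 normalized counts against 17829 to 20209 in WT, and overlapped in CD4+ cells at 5399 to 8408 and 6104 to 8243. Its interaction was -0.46 ± 0.10 (SE; adjusted P = 0.0494). *Prf1*, the pore-forming perforin, and *Gzma*, granzyme A, were chosen after their values were seen. Their interactions of -1.08 (adjusted P = 0.135) and -0.88 (adjusted P = 0.114) did not pass. On the list of CD4 lineage and helper genes *Cd4* alone passed among 14, and the median interaction was -0.05.

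*Itgb1* and *Itga4*, whose products pair as the integrin VLA-4, passed among 25 chemokine receptors and homing integrins, both positive, with a median of 0.08 for the list. *Itgb1* had 22405 to 50527 normalized counts in KO and 17632 to 25463 in WT CD8+ cells, 48708 to 79338 in KO and 59674 to 72041 in WT CD4+ cells, and an interaction of 0.63 ± 0.13 (SE). *Itga4* had 41686 to 94662 in KO and 40540 to 45464 in WT CD8+ cells, 26242 to 47597 in KO and 31814 to 37141 in WT CD4+ cells, and an interaction of 0.48 ± 0.10 (SE). The levels overlapped in both subsets for both genes. The within-animal differences did not, as in 171 of the 173 called genes. *Ccr9*, a receptor of homing to the small intestine, had an interaction of 0.08 (95% interval -0.56 to 0.73).

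Of 33 T cell receptor signalling genes 3 passed, and the list's median interaction was 0.02. *Cd6*, a receptor that modulates T cell activation, rose in KO cells of both subsets, by 0.54 in CD4+ and 1.05 in CD8+ cells, with 14681 to 22762 normalized counts in KO and 8353 to 11384 in WT CD8+ cells. *Cd247*, the CD3 zeta chain, had 15739 to 17851 in KO and 12015 to 13797 in WT CD8+ cells and overlapped in CD4+ cells, with an interaction of 0.30 ± 0.06 (SE). *Cblb*, a ubiquitin ligase that restrains activation, was lower in KO CD8+ cells, at 9892 to 13122 against 14080 to 16319, and overlapped in CD4+ cells, with an interaction of -0.49 ± 0.10 (SE). *Lck*, the kinase of the coreceptors, had an interaction of 0.03 (95% interval -0.11 to 0.18).

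*Il2rb*, the shared beta chain of the receptors for interleukins 2 and 15, was the gene called among 25 cytokine receptors, whose median was 0.12. It had 45772 to 71877 normalized counts in KO and 33951 to 39705 in WT CD4+ cells and overlapped in CD8+ cells, at 45727 to 55457 and 46633 to 51259. *Il2ra* (interaction 0.53, 95% interval 0.10 to 0.97, adjusted P = 0.235) and *Il7r* (0.46, 0.02 to 0.89, adjusted P = 0.306) did not pass. *Il2ra* passed at 0.77 without KO animal 1 (limma, adjusted P = 0.0227). The interaction of *Il7r* was 0.28 without KO animal 1, and passed at 0.70 without KO animal 3 (limma, adjusted P = 0.0162). *Il7r* rose in KO cells of both subsets, by 1.20 in CD4+ and 1.65 in CD8+ cells. Among 21 cytokines and chemokines 0 passed in limma with the block, and 7 had an unadjusted P under 0.05, beside 15.2% of all genes tested. *Ifng*, interferon gamma, fell in both subsets, with differences of -0.95 in CD4+ and -1.79 in CD8+ cells and an interaction of -0.84 (95% interval -1.39 to -0.29, adjusted P = 0.135). It was -0.53 without KO animal 2, and passed at -1.05 without KO animal 3 (limma, adjusted P = 0.0416).

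Of 21 exhaustion genes 1 passed, and the median interaction of the list was -0.26. The gene was *Nr4a1*, an orphan nuclear receptor induced by T cell receptor signals, which is also on the list of immediate early genes. It had 439, 598, 1228 and 761 normalized counts in KO and 1595, 1675, 2110 and 2263 in WT CD8+ cells, and 914 to 2171 in KO and 2297 to 3080 in WT CD4+ cells. All KO libraries lay below WT in both subsets. The difference of -0.80 in CD4+ cells did not pass (adjusted P = 0.0506), that of -1.42 in CD8+ cells did (adjusted P = 0.00185), and the interaction was -0.62 ± 0.12 (SE). *Pdcd1*, which encodes PD-1, had an interaction of -0.05 (95% interval -0.45 to 0.34), and *Tox* of -0.42 (-0.95 to 0.10), which became -0.65 without KO animal 2 and -0.16 without KO animal 4.

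*Myc*, a transcription factor of cell growth on the immediate early list, had 1684 to 3522 normalized counts in KO and 3506 to 4249 in WT CD8+ cells, and 2681 to 3313 in KO and 2849 to 3109 in WT CD4+ cells, with an interaction of -0.68 ± 0.15 (SE). *Fos*, a subunit of the AP-1 factor, fell in both subsets, with a difference of -3.01 in CD4+ cells and an interaction of 0.01 (95% interval -0.57 to 0.58). *Bax*, which promotes death through mitochondria, rose by 0.35 in KO CD4+ cells, where it had 3647 to 5267 against 2982 to 3775, and had an interaction of -0.46 ± 0.09 (SE). It was the gene called among 16 of the BCL2 family.

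Several programmes gave 0 calls for the interaction in limma with the block. Their counts at an unadjusted P under 0.05 stand beside 15.2% of all genes tested. These were heat shock chaperones (14 genes, 0 at an unadjusted P under 0.05), mitosis genes (18 genes, 0), DNA replication genes (17 genes, 1), glycolysis genes (15 genes, 2), interferon-stimulated genes (25 genes, 7), memory and progenitor genes (16 genes, 7), NK receptors and adaptors (16 genes, 7) and DNA methylation genes (14 genes, 4). *Hspa1a*, an inducible HSP70 with a near-identical neighbour between which reads can be split, had 4.12 to 82.1 normalized counts in KO and 1435 to 10881 in WT libraries. It fell in both subsets, with differences of -7.26 in CD4+ and -7.42 in CD8+ cells, and its interaction of -0.16 had a wide interval, -1.76 to 1.44. *Dnmt3a* itself fell by 1.64 in CD4+ and 1.20 in CD8+ cells, with an interaction of 0.44 (95% interval 0.17 to 0.71, adjusted P = 0.113). It passed at 0.56 without KO animal 2 (limma, adjusted P = 0.0289) and at 0.44 with DESeq2 (adjusted P = 0.0291). *Dnmt3b*, the other de novo methyltransferase and also chosen after its values were seen, rose by 1.08 in KO CD4+ and 0.72 in KO CD8+ cells, with an interaction of -0.37 (-0.65 to -0.08, adjusted P = 0.206).

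**Figure D4:**
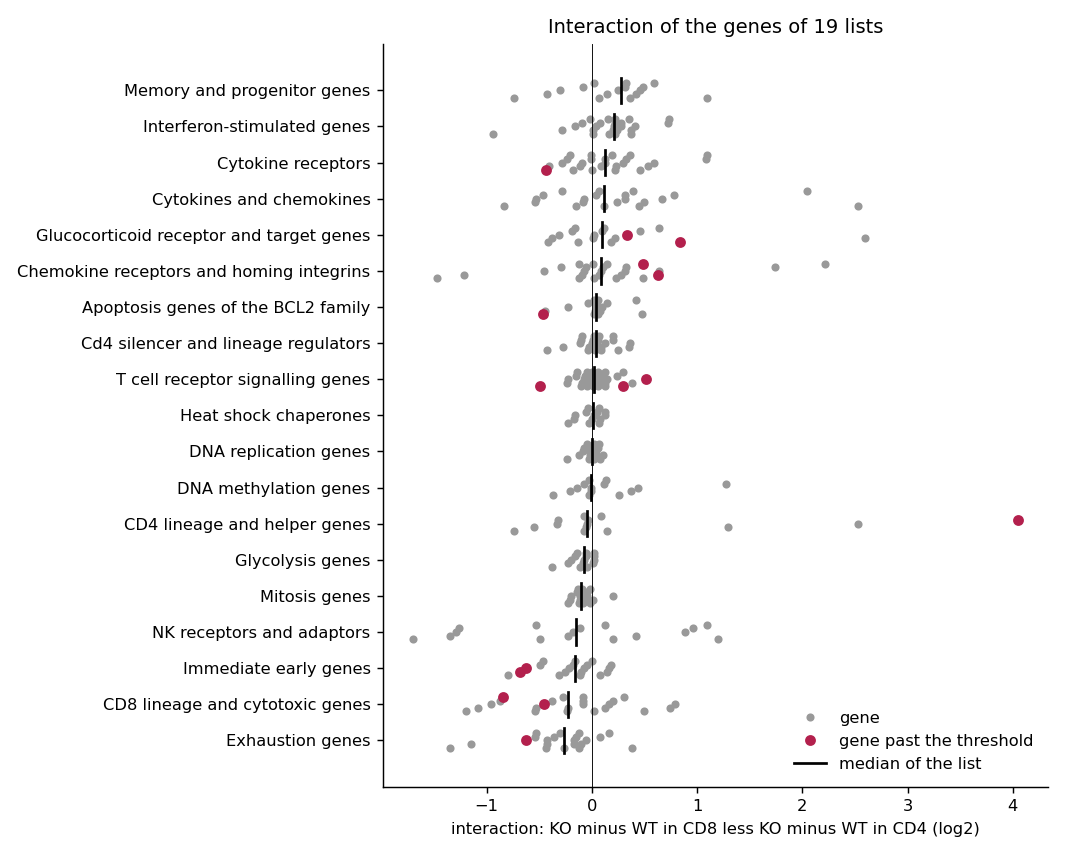
Interaction (x axis, log2) of each tested gene on the 19 lists of T cell programmes, sorted by the median of the list (black bar). Red points are the genes past the threshold with the animal block; *Cd4* is at 4.05, and the medians run from -0.26 for exhaustion genes to 0.28 for memory and progenitor genes.

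The direction of the interaction went with the length of the transcript. Among called genes the longest annotated transcript had a median of 7352.5 nt for the 90 positive genes and 2860 nt for the 83 negative genes, against 3260 nt over all genes tested. With all genes divided by length into 5 groups of equal size, the longest group (5128 to 123179 nt) held 63 of the positive genes, and 7 of the negative genes did. The GC content of the transcript was 47.4% in positive, 54.7% in negative and 49.9% in all genes tested (medians). Over 12370 genes the interaction had a Spearman rho of 0.18 with length and -0.17 with GC content. Libraries themselves differed in this respect, with a rho between expression relative to the mean of all libraries and length of 0.05 to 0.17 in WT CD4+ libraries and of -0.09 to 0.04 in the other groups.

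When the dependence on length and GC content was removed from each library, an alternative added after seeing the data, 56 genes passed with the block, 21 positive and 35 negative. Of these, 50 were among the 173, and all 173 had the same sign as before. The longest group then held 6 of the positive genes. Of the 37 named genes that passed, 17 passed with the correction, and these were *Cd4*, *Nr3c1*, *Dnajc6*, *Dclk1*, *Fam101b*, *Lnpep*, *Haao*, *Abca1*, *Elk4*, *Mfsd4*, *Hk3*, *Grb7*, *Cd72*, *Gm4956*, *Cd6*, *Cblb* and *Gzmb*. The interaction of *Lnpep* became 0.57, from 0.85. *Itga4* and *Ncoa2* did not pass, and their interactions became 0.26 and 0.18. *Itgb1*, *Myc*, *Il2rb*, *Ctsw*, *Cd247*, *Nr4a1* and *Bax* did not pass either, with interactions of 0.61, -0.63, -0.40, -0.42, 0.29, -0.53 and -0.33. Whether RNA quality or library preparation differed between the groups was not tested.

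**Figure D5:**
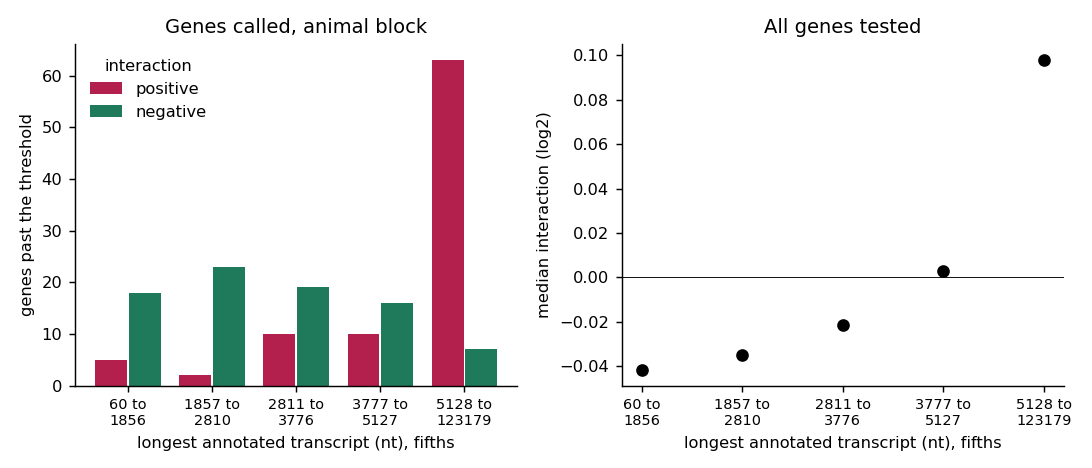
Left, genes past the threshold with the animal block (bars, y axis from 0) in 5 equal groups of all genes tested by the length of the longest annotated transcript (x axis, nt), positive in red and negative in green; right, the median interaction (y axis, log2) of all genes in the same groups. The longest group holds 63 positive and 7 negative genes and has a median of 0.10, against -0.04 in the shortest.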

How the data were processed

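RNA of sorted donor T cells was sequenced from strand-specific poly(A) libraries. The authors aligned reads to mm10 with STAR (version 2.7.2b in the submitters' processing notes), counted them on UCSC mm10 exons with strand taken into account, and divided them by DESeq2 size factors. The deposited values are this normalized signal, called normalized counts here, and 100% of them were whole multiples of what 1 read is worth (tolerance 1e-06), so that whole reads were recovered.

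Log2(normalized count + 1) of 12446 of 17101 genes, those with a mean of at least 10 over the 16 libraries, was fitted with limma 3.58.1 (R 4.3.3, empirical Bayes with trend). P-values were adjusted by Benjamini-Hochberg over all genes tested (threshold 0.05). Values for KO minus WT in each subset come from the fit without the block. The block was the animal named in the library titles, and each of the 8 animals' libraries correlated best with its own partner. P-values measure the spread between these animals. No pair of replicates agreed within sampling noise (lowest chi-square per degree of freedom 11.0). Fold changes of low genes are understated by the pseudocount of 1. On the recovered reads, edgeR 4.0.16 (quasi-likelihood) and DESeq2 1.42.0 were alternatives. The scripts were tested on simulated data.

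Named genes were *Dnmt3a*, *Cd4*, *Cd8a*, *Cd8b1*, *Zbtb7b* and *Runx3*, genes called without the block, called list genes, the 12 largest called interactions in each direction (mean of at least 50, animals not overlapping), and 13 defining genes of the lists. The members and lists were chosen with earlier results of these data known. Transcript lengths came from GENCODE and positions and promoters from RefSeq (GRCm38.p6).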

Additional observations from a re-analysis of the deposited data

Results flagged for a closer look

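The KO-minus-WT difference departed between the subsets, by the test of the interaction itself, in 2 genes without and in 173 genes with the animal block. The positive interactions among the named genes, on the log2 scale, were 4.05 for *Cd4*, 2.27 for *Dnajc6*, 2.01 for *Dclk1*, 1.83 for *Dmxl2*, 1.82 for *Abca1*, 1.61 for *Hlf*, 1.41 for *Fam101b*, 1.10 for *Hk3*, 0.95 for *Elk4*, 0.90 for *Mfsd4*, 0.86 for *Tanc1*, 0.85 for *Lnpep* and 0.84 for *Nr3c1*. Smaller positive ones were 0.63 for *Itgb1*, 0.51 for *Cd6*, 0.48 for *Itga4*, 0.33 for *Ncoa2* and 0.30 for *Cd247*.

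The negative interactions were -2.21 for *Gm4956*, -2.00 for *Ccdc112*, -1.59 for *Lmntd2*, -1.57 for *Ankle1*, -1.51 for *Haao*, -1.46 for *Snhg20*, -1.37 for *Cd72*, -1.34 for *Zfp692*, -1.32 for *Grb7*, -1.23 for *Syk*, -1.12 for *Susd1* and -1.03 for *Tbxa2r*. Among list genes they were -0.84 for *Gzmb*, -0.68 for *Myc*, -0.62 for *Nr4a1*, -0.49 for *Cblb*, -0.46 for *Bax*, -0.46 for *Ctsw* and -0.43 for *Il2rb*.

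In 6 of 108 groups of 4 animals, 1 animal's CD8-minus-CD4 difference lay far from the others, and chance gives about 1 in 20. KO animal 1 was at 0.0813 for *Runx3*, with the others at 0.36 to 0.38, and at 0.0310 for *Isg15*, with the others at -0.90 to -0.78. KO animal 3 was at 0.84 for *Cblb*, against 0.48 to 0.51. WT animal 2 was at -3.00 for *Tcf7*, against -2.19 to -2.14, and at 1.45 for *Lmntd2*, against 1.16 to 1.20. WT animal 5 was at -1.60 for *Hlf*, against -0.87 to -0.75.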

How the results depend on the processing

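Without the block, where 2 genes passed, there were 7 calls with no filter on low values, 0 without the variance trend and 0 with array weights (limma, 777 and 839 genes at an unadjusted P under 0.05), 1 each with edgeR, in a joint fit of 20 libraries and with correction for length and GC content, and 21 with DESeq2. Leaving out 1 library gave 0 to 5. The animal block, a pairing within animals, gave 173. From 173, the count became 2 without the block, 77 with no filter, 2 without the variance trend, 507 with DESeq2, 9 in the joint fit and 56 with the correction. Leaving out 1 animal gave 8 to 268. Of the calls, 52.0% were positive, against 37.5% with the correction. The cause of these shifts was not tested. The correction, and the named genes' values without 1 animal, were added after seeing the data. No called named gene reversed. Leaving out 1 animal could not reverse them, since KO and WT animals did not overlap in the CD8-minus-CD4 difference of these genes. Of 1190 recomputed values, 33 reversed, in 8 genes that did not pass. *Zbtb7b* became 0.0195 with quantile normalization, 0.00798 with array weights and 0.0635 with the correction. *Hspa1a* became 0.14 with a pseudocount of 10, 0.00897 with quantile normalization and 0.0476 with edgeR. *Fos* became -0.0852 with array weights, -0.00367 with edgeR and -0.00153 with DESeq2. *Isg15* became 0.0379 with quantile normalization and 0.0163 with the correction. Without 1 animal, *Cd8a* ranged from -1.70 to 0.24, *Zbtb7b* from -0.15 to 0.0787, *Pdcd1* from -0.26 to 0.0742, *Ccr9* from -0.16 to 0.38, *Fkbp5* from -0.0724 to 0.0971, *Hspa1a* from -1.13 to 0.48, *Fos* from -0.33 to 0.17 and *Isg15* from -0.23 to 0.0780.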
